A study of Homo sapiens with 12 samples.

Results

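The expression of 10 genes of the JAK-STAT3 pathway was followed across the 6 conditions: the feedback inhibitors SOCS1, SOCS2, SOCS3 and CISH, the transcription factor STAT3, the kinase JAK2, the receptor chain IL10RA, and the kinases PIM1, PIM2 and PIM3. They were chosen by name as the core of the pathway, its SOCS feedback loop and its PIM kinase targets, and each matched 1 of the 58884 genes in the count table, so the 10 genes are all accounted for. RNA was sequenced from U2932 and TMD8, wild-type human diffuse large B-cell lymphoma (DLBCL) lines that the study classes as activated B-cell subtype. Cells of each line received rituximab (R), ofatumumab (OF) or a human IgG1 isotype control at 20 µg/mL for 4 h. R and OF both bind CD20, the B-cell surface protein encoded by MS4A1, while the isotype antibody has no target on these cells and served as the baseline, since no untreated culture was sequenced. Each of the 6 conditions had 2 libraries (n = 2 throughout), from cultures of the same line that were grown apart before treatment, so the spread between them is that of cultures of 1 line and not of patients.

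Cytokines such as the interleukins encoded by IL6 and IL10 bind receptors that lack a kinase of their own and use JAK kinases to phosphorylate STAT3, which then enters the nucleus and switches on genes. Among these genes are SOCS3 and other SOCS family members, whose proteins bind the receptor or the JAK and damp the signal, and so their transcripts are widely used as a readout of recent JAK-STAT activity. PIM kinases are active as soon as they are made, so their level is set largely by transcription, and they phosphorylate regulators of survival, translation and the cell cycle. In the activated B-cell subtype of DLBCL this pathway is known to be fed by autocrine IL6 and IL10, and PIM1 is a frequent target of somatic hypermutation.

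The 12 libraries held 15440226 to 27110612 counts. All 7 B-cell markers examined, MS4A1 among them, were above 1 CPM (counts scaled to the library's total) on average in both lines, while the summed level of 5 T-cell markers was at most 1.03 CPM that of 5 myeloid markers at most 1.42 CPM and that of 4 fibroblast markers at most 1.25 CPM in any U2932 and 6.07 CPM in any TMD8 library, with COL1A1 above 1 CPM on average in TMD8. The 7 activated B-cell subtype markers, of which PIM2 is 1, summed to 943 to 1044 CPM in U2932 and 1469 to 2078 CPM in TMD8, and 7 germinal centre subtype markers to 421 to 460 CPM and 119 to 162 CPM. TMD8 OF 2 and TMD8 isotype 2 stood apart from the other TMD8 libraries, with 7.16% and 6.51% of counts on ribosomal protein genes against 10.0% to 10.8%. Fold changes of the 10 genes over isotype in TMD8 are also given without 1 or the other of them. No fit left out both, and other named genes are given with both libraries only. In bulk RNA, less transcript per cell cannot be told apart from fewer cells that make it.

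Under isotype, the 2 lines differed most in SOCS3, SOCS2, CISH and STAT3, all of which were higher in TMD8. Levels are CPM after TMM normalization of all 12 libraries. SOCS3, the inhibitor most closely tied to STAT3, measured 1.25 and 1.71 CPM in the 2 U2932 isotype libraries and 71.7 and 67.7 CPM in the 2 TMD8 isotype libraries. The 2 lines did not overlap, and SOCS3 was 46.9-fold lower in U2932 (log2 fold change of −5.55 ± 0.20, SE, adjusted p = 3.27e-09, edgeR quasi-likelihood test over 16187 genes). STAT3 itself measured 87.7 and 91.6 CPM in U2932 and 398 and 510 CPM in TMD8, a 5.07-fold difference (−2.34 ± 0.16, adjusted p = 1.95e-07). JAK2, a kinase that acts on STAT3, was also lower in U2932, at 37.1 and 42.8 CPM against 58.7 and 61.6 CPM, and the difference of 1.51-fold (−0.59 ± 0.12, adjusted p = 0.00132) lay just past the 1.5-fold limit.

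SOCS2 and CISH, the SOCS family members best known as targets of STAT5, were close to silent in U2932. SOCS2 had 2 reads and 0 reads in the U2932 isotype libraries and 0 reads in all 4 U2932 libraries with R or OF, which allows up to 0.0817 CPM under R and 0.0859 CPM under OF by a limit of 3 reads over both libraries. In the TMD8 isotype libraries it had 67 and 89 reads, a level 77.1 times as high (exact 95% interval of 21.0 to 643 from the reads of both libraries, counting error only). CISH had 0 to 4 reads in each U2932 library, and 12 and 56 reads in the TMD8 isotype libraries, a ratio of 22.4 (7.35 to 111). The 2 TMD8 isotype libraries thus differed widely for CISH, and its level there, 1.34 ± 0.92 CPM, is poorly known. No fold change is given for either gene within U2932, where both failed the filter on low counts.

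PIM1 and PIM3 ran the other way and were higher in U2932. PIM1 measured 225 and 198 CPM in U2932 isotype libraries and 99.4 and 128 CPM in TMD8 isotype libraries, 1.86-fold apart (0.89 ± 0.14, adjusted p = 0.000203). PIM3 measured 66.2 and 54.4 CPM against 31.2 and 34.2 CPM, 1.84-fold apart (0.88 ± 0.13, adjusted p = 0.000151). Neither gene's libraries overlapped between the lines. IL10RA, the ligand-binding chain of the receptor for IL10, passed the test with a higher level in U2932 (0.56 ± 0.17, adjusted p = 0.0148), and SOCS1 and PIM2 passed it with lower levels there (−0.53 ± 0.20, adjusted p = 0.0352, and −0.36 ± 0.12, adjusted p = 0.0251), all 3 at less than 1.5-fold. IL10RA passed 1.5-fold, and so was called, in 8 alternatives, among them total counts only (0.68), the GC content correction (0.675) and the fit without TMD8 isotype 2 (0.82). SOCS1 was called without TMD8 isotype 2 (−0.75, adjusted p = 0.00569) and stood at −0.20 after correction for GC content (adjusted p = 0.498). JAK2 was −0.56 without TMD8 isotype 2, under the fold limit. In all, 7 of the 10 genes were called, at an adjusted p under 0.10 and at least 1.5-fold, against 56.1% of all genes tested. SOCS2 and CISH are among the 7. They failed the filter in U2932 and entered this test through their reads in TMD8, so their calls add no support. A difference between the lines was about as common among these genes as elsewhere in the transcriptome.

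Per kb of exon sequence, which allows levels to be compared between genes, the PIM kinases led in U2932 under isotype, with PIM1 at 71.1 CPM per kb, PIM2 at 53.0 and PIM3 at 24.5. IL10RA followed at 20.6, STAT3 at 10.2, SOCS1 at 9.35 and JAK2 at 6.47, and SOCS3 stood far below at 0.541. In TMD8 under isotype the order was PIM2 at 68.2, STAT3 at 51.5, PIM1 at 38.2 and SOCS3 at 25.5 CPM per kb, so that SOCS3 was among the 4 highest of the set in one line and among the 3 lowest in the other. IL10RA at 13.95, SOCS1 at 13.6 and PIM3 at 13.3 overlapped between libraries and have no order in TMD8, while JAK2 stood at 9.75, SOCS2 at 0.515 and CISH at 0.261. With the length of the longest transcript in place of all exons, IL10RA moved above PIM3 in U2932 (45.2 against 25.5 CPM per kb) and above SOCS3 in TMD8 (30.6 against 25.5), and PIM2 and STAT3 came to 90.7 and 90.0 in TMD8.

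**Figure D1:**
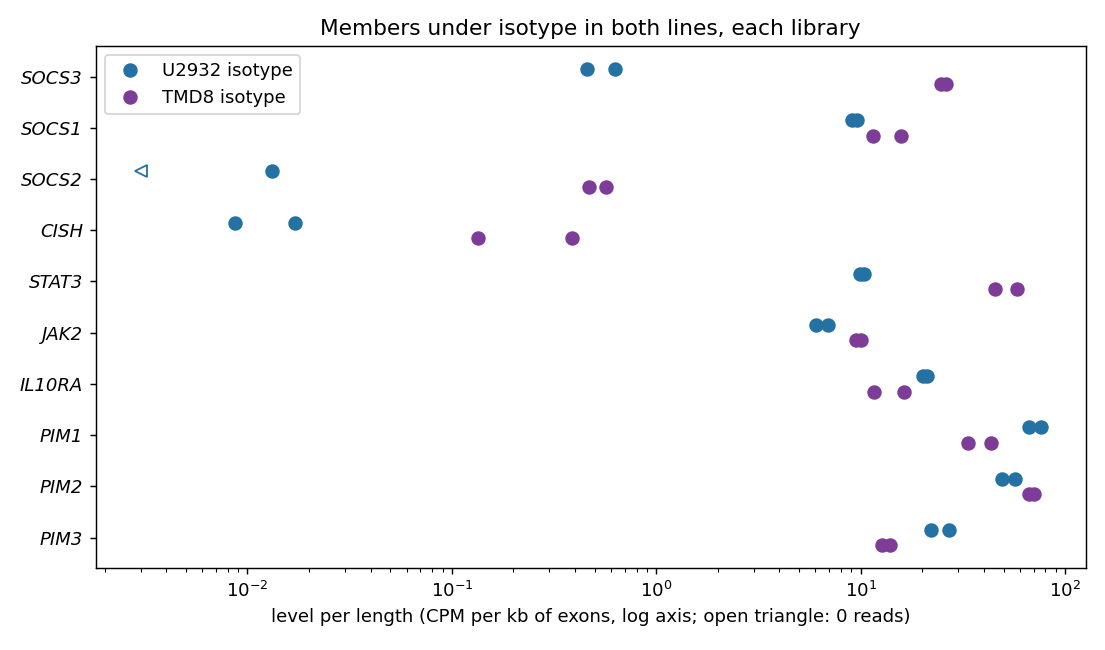
Level of each gene per kb of exons (log axis) in the 2 U2932 and the 2 TMD8 isotype libraries, each point 1 library and an open triangle a library with 0 reads. SOCS3 lies near 0.541 CPM per kb in U2932 and 25.5 in TMD8, while PIM1 lies at 71.1 and 38.2.

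RefSeq windows around start sites (GRCh38.p14, 250 bases before to 50 after) were found for 9 of the 10 genes, in 13 windows, and searched for TTCNNNGAA, the palindromic core that STAT dimers bind, which reads the same on both strands. CISH was the only member with a match. Its window held 4 matches, beginning 241, 230, 129 and 112 bases before the start site. Of all 35116 windows of 300 bases, 7.66% held at least 1 match and 0.0199% held 4 or more. A match is a run of letters and not a measured site, and CISH was also the member with the fewest reads in TMD8. The CISH window is shown for these matches, in capitals, beside windows of SOCS3, which rose most with the antibodies, and PIM1, which fell in U2932, neither of which holds the motif.
CISH, chr3:50611725-50612024, minus strand: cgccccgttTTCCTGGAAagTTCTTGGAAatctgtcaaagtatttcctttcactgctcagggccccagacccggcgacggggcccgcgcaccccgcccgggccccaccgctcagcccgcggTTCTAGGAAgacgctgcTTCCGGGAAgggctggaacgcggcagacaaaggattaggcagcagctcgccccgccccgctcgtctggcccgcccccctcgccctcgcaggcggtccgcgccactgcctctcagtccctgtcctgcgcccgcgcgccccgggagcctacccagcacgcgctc
SOCS3, chr17:78360876-78361175, minus strand: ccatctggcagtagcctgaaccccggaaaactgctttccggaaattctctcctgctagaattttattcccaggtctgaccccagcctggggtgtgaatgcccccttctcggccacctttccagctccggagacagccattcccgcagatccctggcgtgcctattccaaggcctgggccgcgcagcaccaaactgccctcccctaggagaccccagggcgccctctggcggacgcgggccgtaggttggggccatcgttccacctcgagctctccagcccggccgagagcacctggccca
PIM1, chr6:37169902-37170201, plus strand: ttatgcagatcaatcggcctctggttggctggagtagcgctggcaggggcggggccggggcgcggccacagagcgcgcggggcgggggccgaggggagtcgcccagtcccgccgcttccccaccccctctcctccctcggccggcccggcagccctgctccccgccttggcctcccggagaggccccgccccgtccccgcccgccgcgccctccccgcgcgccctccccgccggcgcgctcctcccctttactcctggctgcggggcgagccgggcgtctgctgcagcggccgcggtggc
The SOCS3 window surrounds a RefSeq start site that lies 848 bases upstream of the gene's start in GENCODE 29 (chr17:78356778-78360077), and a second RefSeq window of SOCS3 lies within the gene, so neither covers that start. PIM1 lies at chr6:37170203-37175426 and CISH at chr3:50606490-50611831 in the same annotation. The PIM1 window thus ends just before that start. The windows of IL10RA (chr11:117989695-117989994) and PIM3 (chr22:49960522-49960821) begin after the GENCODE 29 starts of these genes, 117986348 and 49960513. For SOCS3, PIM1, IL10RA and PIM3, the lack of a match therefore does not cover the GENCODE start.

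SOCS3 had the largest increase of the members tested, 8 in U2932 and 10 in TMD8, in every comparison of an antibody with isotype, and SOCS3 under OF was among the steepest increases in the transcriptome of U2932. The question of these comparisons was what 4 h of CD20 binding changed in each line. R and OF were compared with the same isotype libraries, so their values in a line are not independent.

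In U2932, SOCS3 rose from 1.25 and 1.71 CPM under isotype to 2.80 and 3.60 CPM under R and 5.54 and 6.97 CPM under OF. The 3 conditions did not overlap, and their order was isotype, R, OF. The increase was 2.16-fold with R (log2 fold change of 1.11 ± 0.26, 95% interval of 0.58 to 1.65, adjusted p = 0.00209) and 4.23-fold with OF (2.08 ± 0.24, 1.59 to 2.57, adjusted p = 4.17e-07). It ranked 141 of 14635 genes by fold change under R and 8 under OF. These are small numbers of reads, 28 and 39 in the isotype libraries, 50 and 68 under R and 95 and 124 under OF.

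In TMD8, where SOCS3 was abundant, it measured 71.7 and 67.7 CPM under isotype, 140 and 125 CPM under R and 177 and 159 CPM under OF. The order of the 3 conditions was again isotype, R, OF with no overlap. OF raised SOCS3 2.42-fold (1.28 ± 0.16, 0.89 to 1.66, adjusted p = 0.0851). With R the difference was 1.91-fold (0.93 ± 0.16, 0.55 to 1.32), and its adjusted p of 0.101 missed the limit. The replicate block pairs libraries of the same replicate number, which was inferred to mark 1 culture. With it the adjusted p was 0.00548 with a log2 fold change of 0.93. Without TMD8 isotype 2 the log2 fold change was 0.88 under R (adjusted p = 0.168) and 1.22 under OF (adjusted p = 0.0651). Without TMD8 OF 2 it was 1.36 with OF, no longer called (adjusted p = 0.237). SOCS3 also lost its call with OF without TMD8 OF 1 (1.19, adjusted p = 0.325) and without TMD8 isotype 1 (1.33, adjusted p = 0.129), and with R it was called without TMD8 isotype 1 (0.98, adjusted p = 0.0905).

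SOCS1, which inhibits JAK kinases directly and is a recurrent mutation target in B-cell lymphoma, rose in U2932. There it measured 16.3 and 17.3 CPM under isotype, 21.5 and 27.7 CPM under R, and 27.8 and 27.04 CPM under OF. Both antibodies were above isotype in every library. SOCS1 rose 1.47-fold with R (0.55 ± 0.12, adjusted p = 0.00126), short of the 1.5-fold limit, and 1.64-fold with OF (0.71 ± 0.12, adjusted p = 8.23e-05). Without U2932 R 1 or U2932 isotype 2 the increase with R passed 1.5-fold (0.72 and 0.59), and without U2932 R 2 it was 0.364. In the fit of all 12 libraries the increase with R did not pass the test (0.552, adjusted p = 0.156). SOCS1 transcripts are rich in G and C, at 69.1% of bases against a median of 48.1% over the genes tested in U2932, and after correction for GC content the increase with OF was 0.49, which passed the test (adjusted p = 0.00411) but not the fold limit.

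In TMD8 SOCS1 measured 28.1 and 20.6 CPM under isotype, 14.2 and 16.9 CPM under R, and 22.0 and 29.6 CPM under OF. R lay below the other conditions, and OF overlapped isotype. The difference with R was −0.64 ± 0.24 (−1.20 to −0.07, adjusted p = 0.265) and was called only in some fits: with the replicate block it was −0.64 (adjusted p = 0.0938), and with the block and the GC content correction −0.32 (adjusted p = 0.413). Without TMD8 isotype 2 it was −0.86 (adjusted p = 0.208). With OF the difference was 0.09 ± 0.23 (adjusted p = 0.911), and −0.13 without either TMD8 OF 2 or TMD8 isotype 2. SOCS1 lies within the span of RMI2 on the opposite strand, and reads of the 2 genes cannot be told apart where they overlap, since no source states that counting used the strand. The log2 fold changes of RMI2 itself were 0.02 ± 0.12 with R and 0.11 ± 0.12 with OF in U2932 (adjusted p = 0.943 and 0.517), and −0.27 ± 0.16 and −0.03 ± 0.16 in TMD8 (adjusted p = 0.463 and 0.964), where that with R has the sign of the SOCS1 difference. The part of RMI2 reads in the SOCS1 values was not tested.

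SOCS2 and CISH could be tested in TMD8 only and gave wide intervals. SOCS2 measured 3.82 and 3.16 CPM under isotype, 2.47 and 2.24 CPM under R and 4.05 and 2.64 CPM under OF. Its log2 fold change was −0.56 with R (−1.29 to 0.18) and −0.05 with OF (−0.77 to 0.67), and without TMD8 isotype 2 it was −0.70 and −0.20, while without TMD8 OF 2 that with OF was 0.23. CISH measured 0.685 and 1.99 CPM under isotype, 2.01 and 1.05 CPM under R and 1.99 and 2.26 CPM under OF. The CISH differences, 0.15 with R (−1.14 to 1.45) and 0.62 with OF (−0.64 to 1.88), were not detectable at this depth. They rest on the isotype libraries: without TMD8 isotype 2 they were 1.15 and 1.61 (adjusted p = 0.43 and 0.166), and without TMD8 isotype 1 that with R was −0.36 (adjusted p = 0.653). Without TMD8 OF 2 that with OF was 0.53, and without TMD8 R 1 that with R was −0.38. CISH overlaps MAPKAPK3 on the opposite strand, which had 12096 reads over all libraries against 191 for CISH, and SOCS2 overlaps SOCS2-AS1, with 46 reads against 332.

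**Figure D2:**
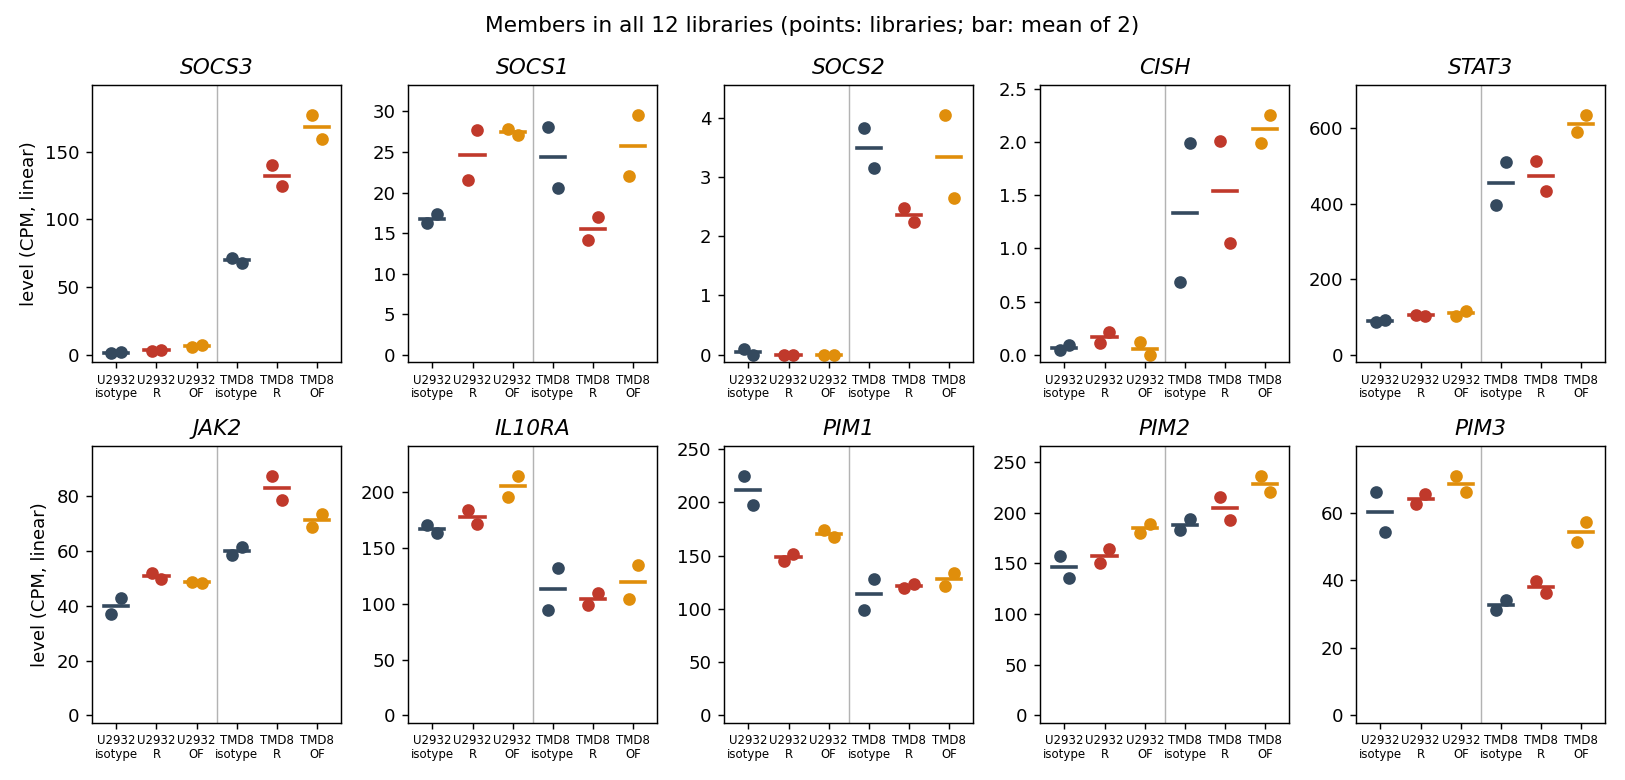
Level of each gene (CPM, linear axes from 0) in every library of the 6 conditions, with a point for each of the 2 libraries and a bar at their mean. SOCS3 under OF stands above R and R above isotype in both lines, while PIM1 in U2932 lies at 198 to 225 CPM under isotype and at 145 to 174 CPM under the antibodies.

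STAT3, JAK2 and IL10RA rose by small amounts in U2932. STAT3 measured 87.7 and 91.6 CPM under isotype, 105 and 103 CPM under R and 103 and 117 CPM under OF, and passed the test with both antibodies (0.22 ± 0.09, adjusted p = 0.0856, and 0.30 ± 0.09, adjusted p = 0.0173). JAK2 measured 37.1 and 42.8 CPM under isotype, 52.1 and 49.7 CPM under R and 48.9 and 48.5 CPM under OF, and also passed with both (0.35 ± 0.10, adjusted p = 0.0114, and 0.29 ± 0.10, adjusted p = 0.0342). Every antibody library of either gene lay above its isotype libraries. IL10RA passed with OF alone, at 196 and 215 CPM against 170 and 163 CPM under isotype (0.30 ± 0.09, adjusted p = 0.0106), and stood at 184 and 172 CPM with R (0.09 ± 0.09, adjusted p = 0.491). Without each library in turn, IL10RA with OF ran from 0.228 to 0.367.

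In TMD8 none of these 3 genes passed the test. STAT3 measured 398 and 510 CPM under isotype, 513 and 435 CPM under R and 589 and 636 CPM under OF. OF stood above isotype in both libraries, but the spread was wide (0.44 ± 0.20, −0.03 to 0.91, adjusted p = 0.381). Without TMD8 OF 2 it was 0.39 and without TMD8 isotype 2 it was 0.61 (adjusted p = 0.187), and the difference with R, 0.07 ± 0.20, was 0.24 without TMD8 isotype 2. JAK2 measured 58.7 and 61.6 CPM under isotype, 87.6 and 78.7 CPM under R and 68.9 and 73.8 CPM under OF. Its increase with R was 0.48 ± 0.15 (adjusted p = 0.204), and it passed the test with the replicate block (adjusted p = 0.0508) at less than 1.5-fold. Without TMD8 isotype 2 it was 0.50 with R and 0.27 with OF, and without TMD8 OF 2 it was 0.21 with OF. IL10RA overlapped between all 3 conditions, at 94.2 to 132 CPM under isotype, 98.8 to 109 CPM under R and 104 to 135 CPM under OF. Its differences of −0.11 ± 0.21 with R and 0.08 ± 0.21 with OF were 0.14 and 0.33 without TMD8 isotype 2, and −0.10 with OF without TMD8 OF 2.

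PIM1 was the 1 member that fell in U2932. There it measured 225 and 198 CPM under isotype, 145 and 152 CPM under R and 174 and 167 CPM under OF, with no overlap between the 3 conditions. It decreased 1.43-fold with R (−0.51 ± 0.09, adjusted p = 0.000108) and 1.24-fold with OF (−0.31 ± 0.09, adjusted p = 0.0112), both short of 1.5-fold. Without U2932 isotype 2 the decrease with R was −0.60, past the fold limit, and without U2932 isotype 1 it was −0.422. In TMD8 PIM1 measured 99.4 and 128 CPM under isotype, 120 and 123 CPM under R and 122 and 134 CPM under OF, and its log2 fold changes were 0.10 ± 0.17 and 0.17 ± 0.17 (adjusted p = 0.805 and 0.712). They were 0.28 and 0.35 without TMD8 isotype 2, and 0.11 with OF without TMD8 OF 2.

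PIM2, one of the genes by which the activated B-cell subtype is recognized, measured 157 and 136 CPM under isotype in U2932, 150 and 164 CPM under R and 180 and 189 CPM under OF. It rose with OF (0.34 ± 0.09, adjusted p = 0.00645), and under R the libraries overlapped those of isotype (0.10 ± 0.09, adjusted p = 0.463). In TMD8 it measured 183 and 194 CPM under isotype, 215 and 193 CPM under R and 236 and 220 CPM under OF (0.13 ± 0.16 and 0.29 ± 0.16, adjusted p = 0.734 and 0.474), with 0.16 and 0.32 without TMD8 isotype 2 and 0.34 with OF without TMD8 OF 2.

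PIM3 differed most in TMD8 with OF. It measured 31.2 and 34.2 CPM under isotype, 39.8 and 36.3 CPM under R and 51.5 and 57.2 CPM under OF, so the 3 conditions did not overlap. The increase with OF was 1.67-fold (0.74 ± 0.15, 0.38 to 1.10), with an adjusted p of 0.126, and it was called with the replicate block (0.74, adjusted p = 0.0168) and with the block and the GC content correction (0.59, adjusted p = 0.0207). Without TMD8 OF 2 it was 0.67 (adjusted p = 0.453) and without TMD8 isotype 2 it was 0.79 (adjusted p = 0.105). With R the difference was 0.23 ± 0.15 (adjusted p = 0.512), 0.28 without TMD8 isotype 2, and 0.51 with the block and the GC content correction, where it passed the test (adjusted p = 0.0342) at less than 1.5-fold. In U2932 PIM3 measured 66.2 and 54.4 CPM under isotype, 62.7 and 65.7 CPM under R and 71.0 and 66.3 CPM under OF, and did not pass the test (0.09 ± 0.10 and 0.19 ± 0.10, adjusted p = 0.569 and 0.17). With the GC content correction the latter was −0.01, and at 67.1% PIM3 is, after SOCS1, the member richest in G and C.

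In U2932, 5 of the 8 members tested passed the adjusted p limit with R, 4 higher and 1 lower, beside 34.2% of all genes. With OF 7 of 8 passed, 6 higher and 1 lower, beside 36.4%. With the 1.5-fold limit as well, 1 of 8 was called with R, SOCS3, against 10.2% of all genes. With OF 2 of 8 were called, SOCS3 and SOCS1, against 11.1%. In the fit of all 12 libraries, SOCS3 and PIM1 alone of the members passed the adjusted p limit with R, and SOCS3 and SOCS1 alone with OF. In TMD8, 0 of 10 were called with R, against 0.647% of all genes. An unadjusted p under 0.05 was reached by 3 of them, beside 2265 of 14227 genes. DESeq2 called 1 of the 10 with R, where it called 702 of 14227 genes in all. With OF, 1 of 10 was called, SOCS3, against 0.815%. The replicate block raised the TMD8 counts to 2 of 10 with R (SOCS3, higher, and SOCS1, lower) and 2 of 10 with OF (SOCS3 and PIM3), but it also raised the share of all genes called to 11.0% and 9.75%. The median log2 fold change of the members was 0.16 with R and 0.30 with OF in U2932, and 0.12 and 0.27 in TMD8, beside −0.02, 0.01, −0.02 and −0.01 over all genes tested.

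**Figure D3:**
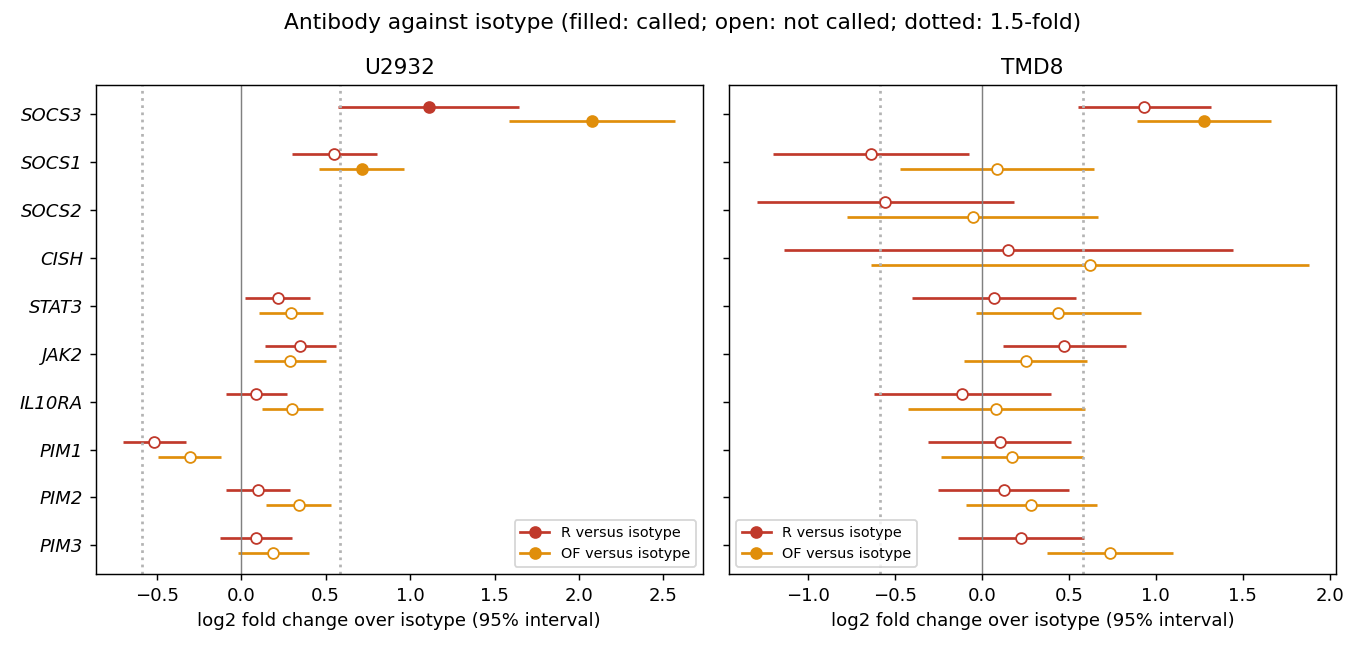
Log2 fold change over isotype with its 95% interval for each gene with R (red) and OF (orange) in U2932 (left) and TMD8 (right), where filled points were called and dotted lines mark 1.5-fold. SOCS3 lies farthest to the right in all 4 comparisons, from 0.93 to 2.08, and PIM1 in U2932 lies to the left of 0 at −0.51 and −0.31.

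R and OF were then compared directly, the question of the study being whether antibodies to the same antigen act alike. SOCS3 in U2932 was the member with the largest difference, at 2.80 and 3.60 CPM under R and 5.54 and 6.97 CPM under OF, 1.96-fold lower with R (−0.97 ± 0.22, −1.42 to −0.52). It ranked 3 of 14635 genes by p, and the adjusted p was 0.773 in the fit of the 6 U2932 libraries. With the replicate block it was called at the limit of 0.30 used for this comparison (−0.97, adjusted p = 0.0919), as were 3 genes in all, 0.0205%. With the block and the GC content correction it was −0.87 (adjusted p = 0.622). Without U2932 OF 1 it was called at −1.123 (adjusted p = 0.286).

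In the fit of the 6 U2932 libraries no member, SOCS3 included, reached the limit. PIM2, IL10RA and PIM1 were each lower with R by a little (−0.24 ± 0.09, −0.21 ± 0.09 and −0.21 ± 0.09, adjusted p = 0.91 for all 3). For PIM1, which both antibodies lowered, this places R below OF and OF below isotype. In total 0 of 8 members were called, and 0 by DESeq2, against 0.00683% of all genes. Of the 8, 4 had an unadjusted p under 0.05, beside 747 of 14635 genes.

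In TMD8, 0 of 10 members and 0.0% of all genes were called between R and OF, and 0 members by DESeq2. Of the members, 2 had an unadjusted p under 0.05, beside 582 of 14227 genes. The widest gaps were in SOCS1, at 14.2 and 16.9 CPM under R and 22.0 and 29.6 CPM under OF (−0.73 ± 0.24, −1.29 to −0.16, adjusted p = 0.733), and PIM3, at 39.8 and 36.3 CPM under R and 51.5 and 57.2 CPM under OF (−0.51 ± 0.15, −0.88 to −0.15, adjusted p = 0.733). Neither gene's libraries overlapped. Without TMD8 OF 2 the differences were −0.51 and −0.44. After correction for GC content these differences were −0.24 and −0.07, and that of SOCS3 went from −0.34 ± 0.16 to −0.07. The intervals still allow differences of over 1.5-fold for most of the set, so likeness of the 2 antibodies was not shown either.

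**Figure D4:**
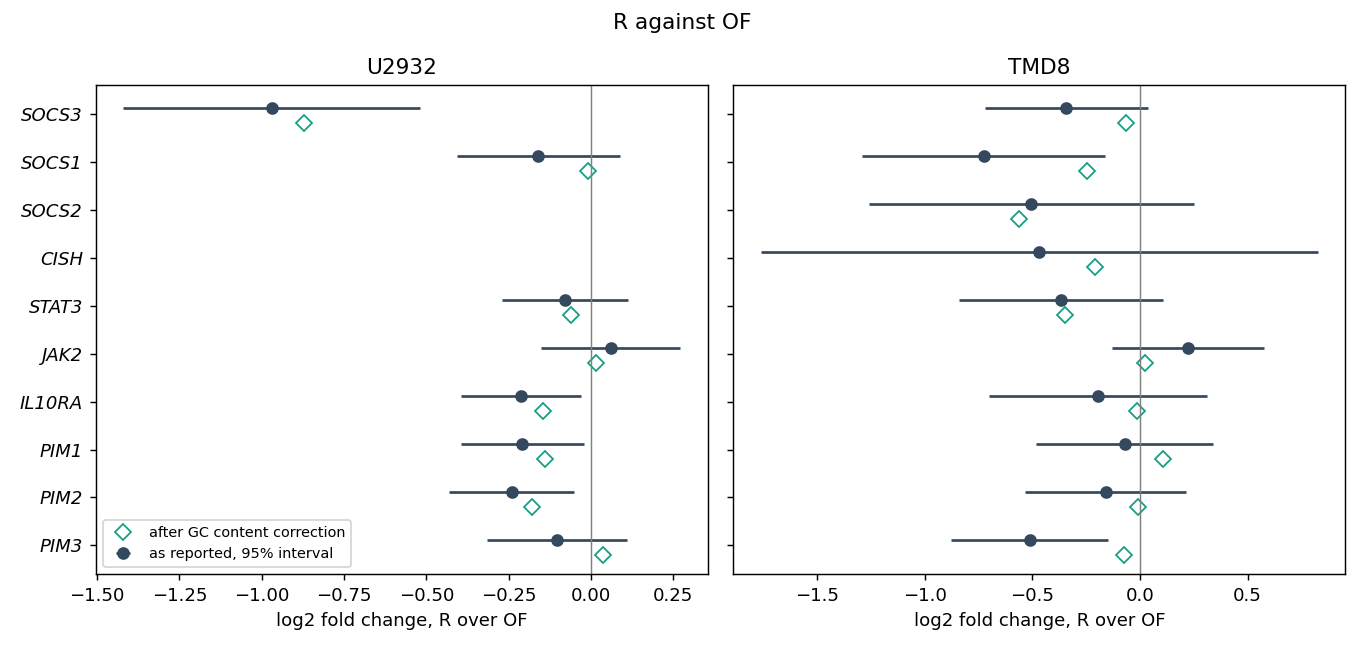
Log2 fold change of R over OF for each gene in U2932 (left) and TMD8 (right), with its 95% interval (dark points) and after GC content correction (open diamonds). SOCS3 in U2932 stays at −0.87 after the correction, while SOCS1 and PIM3 in TMD8 move from −0.73 and −0.51 to −0.24 and −0.07.

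Whether an antibody's effect differed between the lines was tested as an interaction over all 12 libraries, U2932 minus TMD8. The clearest case was SOCS1 with R, which was above isotype in both U2932 libraries and below it in both TMD8 libraries. The difference of the 2 effects was 1.19 ± 0.28 (0.58 to 1.81), with an adjusted p of 0.152, and of 0.0293 with the replicate block (1.19), but of 0.188 with the block and the GC content correction (0.82). For PIM1 with R the difference was −0.61 ± 0.20 (adjusted p = 0.268), −0.61 with the block (adjusted p = 0.0623) and −0.78 with the block and the correction (adjusted p = 0.0204). For SOCS3 with OF it was 0.80 ± 0.26 (adjusted p = 0.38), with an adjusted p of 0.0742 with the block (0.81) and of 0.0803 with both (0.75), a larger relative increase in the line where SOCS3 was scarce.

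For R against isotype, 0 of 10 members had a called interaction, against 0.321% of all genes. An unadjusted p under 0.05 was found for 2 members, beside 1924 of 16187 genes. DESeq2 called 2 (SOCS1 and PIM1), where it called 448 of 16187 genes in all. The fit with the block called the same 2, against 4.76% of all genes. Both were also called without TMD8 isotype 2 (1.41 and −0.80), and SOCS1 without TMD8 isotype 1 (0.95). For OF against isotype the counts were 0 of 10, 0 by DESeq2 and 1 with the block. The shares of all genes were 0.105% without the block and 2.19% with it. An unadjusted p under 0.05 was found for 4 members, beside 1369 of 16187 genes. For R against OF the counts were 0 of 10, 0 by DESeq2 and 0.0% of all genes. Here 2 members had an unadjusted p under 0.05, beside 368 of 16187 genes.

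The other genes of the pathway were read from 5 lists. Of 16 cytokines and receptors, 12 were tested in U2932, where 1 was called higher and 1 lower with each antibody, near the share of all genes called there, 10.2% with R and 11.1% with OF. IL10, the ligand of IL10RA, rose 1.5-fold with R (0.59 ± 0.18, adjusted p = 0.0179) and 1.6-fold with OF (0.68 ± 0.18, adjusted p = 0.00632), from 3.89 and 5.17 CPM under isotype. IL2RA, the alpha chain of the IL2 receptor, fell 1.91-fold with R and 2.05-fold with OF (−0.94 ± 0.23 and −1.04 ± 0.23, adjusted p = 0.00318 and 0.00151). The median of the list was −0.03 with R and 0.04 with OF, beside −0.02 and 0.01 over all genes. In TMD8 0 of 14 were called with either antibody.

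Among the 9 other JAK and STAT genes, JAK3, the kinase of the common gamma chain, was the 1 called in U2932, higher under R (0.81 ± 0.13, adjusted p = 3.13e-05) and under OF (1.119 ± 0.13, adjusted p = 3.55e-07). Of the 14 other negative regulators, 1 was called there, the phosphatase gene PTPN6, higher with R (0.78 ± 0.12, adjusted p = 2.83e-05) and OF (0.67 ± 0.12, adjusted p = 0.000172). The share of all genes called in U2932 was 10.2% with R and 11.1% with OF, so 1 call in each list is near that share. PTPN6 was also called in TMD8 with OF (1.21 ± 0.19, adjusted p = 0.0935). No gene of either list was called there otherwise, beside 0.647% of all genes with R and 0.815% with OF. The medians of the 2 lists were 0.07 and 0.01 with R and 0.15 and 0.06 with OF in U2932, and 0.04 and 0.18 with R and 0.18 and 0.15 with OF in TMD8. SOCS4, SOCS5, SOCS6 and SOCS7, the SOCS genes outside the 10, are in the second list and were called with neither antibody in either line.

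Of 16 genes commonly listed as STAT3 targets, 15 were tested in U2932, and 2 were called higher with R and 3 with OF, with none lower, beside 10.2% and 11.1% of all genes called in either direction. VEGFA, which encodes a vascular growth factor, rose 2.12-fold with each (1.08 ± 0.13 and 1.09 ± 0.13, adjusted p = 7.99e-07 and 9.42e-07), and BATF, an AP-1 family factor of activated B cells, rose with R and OF (0.83 ± 0.11 and 0.72 ± 0.11, adjusted p = 1.8e-06 and 1.72e-05). MYC rose with OF (0.71 ± 0.14, adjusted p = 0.000546). In TMD8, MYC rose with OF (1.19 ± 0.16, adjusted p = 0.0851), while BCL2L1, which encodes the survival protein BCL-XL, fell with R (−1.04 ± 0.14, adjusted p = 0.0717) and OF (−0.85 ± 0.14, adjusted p = 0.095). The median of the list was 0.01 with R and 0.14 with OF in U2932, and 0.10 and 0.47 in TMD8.

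The 12 PIM substrates moved both ways in U2932. With R 1 was called higher and 1 lower, and with OF 2 higher and 1 lower. Among all genes, 10.2% were called there with R and 11.1% with OF. CDKN1A, a cell-cycle inhibitor, rose with R and OF (0.79 ± 0.09 and 0.73 ± 0.09, adjusted p = 5.35e-07 and 1.83e-06), FOXO3 fell with both (−0.88 ± 0.12 and −0.85 ± 0.12, adjusted p = 7.16e-06 and 1.22e-05), and AKT1S1, an inhibitor of mTOR complex activity, rose with OF (0.66 ± 0.10, adjusted p = 1.56e-05). In TMD8 0 of 12 were called with either antibody. The substrates are regulated as proteins by PIM kinases, which transcript levels do not measure. No gene of the 5 lists was called between R and OF in either line, nor in any interaction.

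Under isotype many list genes differed between the lines. Of the 14 cytokines and receptors tested, 9 were called lower in U2932 and 2 higher, and the median was −1.16. IL4R and IL6ST, the signalling chain of the IL6 receptor, were the 2 higher in U2932 (14.9-fold and 8.38-fold, adjusted p = 1.06e-07 and 1.28e-07). IL13RA1, counted among the 9, had 4 and 6 reads in U2932 against 303 and 466 in TMD8. It entered the test through its reads in TMD8, so no fold change is given. STAT4 was higher in U2932 (log2 fold change of 3.70, with 16 and 13 reads in TMD8), while JAK3, PTPN6, SOCS6 and PTPN1 were higher in TMD8, with log2 fold changes of −2.15, −4.17, −3.46 and −2.28. The share of all genes called between the lines was 56.1%. Of the STAT3 targets, 7 of 16 were called in each direction. MYC was 16.8-fold higher in TMD8, and MCL1 was 5.66-fold higher in U2932. CCND2 had 2 and 0 reads in U2932 against 2569 and 4799 in TMD8. It is counted among the 7 lower in U2932 and likewise entered the test through TMD8. Of the PIM substrates, 6 of 12 were called higher and 1 lower in U2932, led by CDKN1B and MAP3K5 (2.18-fold and 2.49-fold higher) and AKT1S1 (2.65-fold lower).

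Across the 12 libraries, after subtracting each line's mean, the log2 CPM of SOCS3 ran most closely with PIM2 among the members (Pearson r = 0.836), followed by STAT3 with PIM3 (r = 0.807) and PIM2 with PIM3 (r = 0.756). PIM1 ran against SOCS1 (r = −0.458), JAK2 (r = −0.356) and SOCS3 (r = −0.313). The points share libraries, conditions and depth, and these values only describe the 12 libraries. Among 12721 genes, the closest were DDIT4 to SOCS3 (r = 0.932), LINC-PINT to SOCS1 (r = 0.922), DPH2 to STAT3 (r = 0.939), NBPF3 to JAK2 (r = 0.985), ADAM19 to IL10RA (r = 0.985), CTC-338M12.4 to PIM1 (r = 0.94), DPH7 to PIM2 (r = 0.914) and LRFN4 to PIM3 (r = 0.96).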

How the data were processed

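Total RNA of 12 cultures was made into libraries with the NEBNext Ultra II RNA kit. Per the labels and their processing notes, the authors trimmed reads (Trim Galore 0.6.0), aligned them with STAR 2.7.0e to GRCh38 and deposited raw counts per gene, not normalized. The annotation release and strand setting are not given in the sources used here. GENCODE 29 gave names, positions, exon lengths and GC content. Reads spanning overlapping genes and multi-mapped reads could therefore have been assigned in ways that were not checked.

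Counts were tested with edgeR 4.0.16 (R 4.3.3): filterByExpr with a minimum of 10 counts, TMM, a quasi-likelihood fit of each line's 6 libraries (all 12 for levels in CPM, the comparison of the lines and interactions) and Benjamini-Hochberg adjustment over all genes tested, 14635 in U2932, 14227 in TMD8 and 16187 over both. A gene passed the test at an adjusted p under 0.10 (0.30 for R versus OF in U2932, limits that follow the study's for R versus OF) and was called if it also changed at least 1.5-fold. Errors of log2 fold changes are SE, those of levels SD, and intervals are 95% and, like the floor of 3 reads, cover no error beyond the model or counting. The median SE of a log2 fold change was 0.12 in U2932 and 0.25 in TMD8.

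The study describes each line as split and grown apart before treatment, from which it was inferred that a replicate number marks 1 culture in all antibodies of a line. In TMD8 the deviations from the condition mean correlated between OF and isotype (r = 0.687), and the remaining 5 pairings of conditions within a line gave r from −0.05 to 0.23, and a fit with that number as a block is given where it changed a call. Other alternatives were DESeq2 1.42.0, other normalizations, filters, sample sets and limits, GC content and length corrections (lowess, span 0.3), and leaving out each library. Replicates differed by more than counting error in every condition. Named genes are the 10 members, up to 3 called genes of each of 5 lists with the smallest adjusted p in each comparison, and the gene most like each member. Of the list genes that the rule names, 1 is not reported here. The members, lists and tests were chosen with earlier results of these data known. The exact ratio for SOCS2 and CISH was chosen after seeing the data. Promoter windows are from RefSeq (GRCh38.p14), and the SOCS2 window was not used here.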

Additional observations from a re-analysis of the deposited data

Results flagged for a closer look

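Effects of an antibody that differed between the lines by the test of the difference, with the replicate block, were found for 3 members. The block called 4.76% of all genes in this test with R and 2.19% with OF, against 0.321% and 0.105% without it. DESeq2 called 448 of 16187 genes with R. With R against isotype, the effect on SOCS1 was 1.19 higher on the log2 scale in U2932 than in TMD8 (adjusted p = 0.0293) and that on PIM1 was −0.61 (adjusted p = 0.0623). With OF against isotype, the effect on SOCS3 was 0.81 higher in U2932 (adjusted p = 0.0742). Without the block, none of the 3 was called by edgeR in the fit of all 12 libraries, while DESeq2 called SOCS1 (adjusted p = 0.0157) and PIM1 (adjusted p = 0.0935), the fit with no filter called SOCS1 (adjusted p = 0.00624) and the GC content correction called PIM1 (−0.78, adjusted p = 0.0563). The GC content correction together with the block ended the call for SOCS1 and for neither of the others. TMD8 isotype 2, which enters all 3 values, is 1 of the libraries that stood apart, and its part in them was not tested beyond the fits without it: there SOCS1 and PIM1 were called at 1.41 and −0.80, and SOCS3 stood at 0.85 (adjusted p = 0.172).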

How the results depend on the processing

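Most counts of called members depended on settings near a limit, since SOCS3 in TMD8 with R, SOCS1 in U2932 with R, PIM1 in U2932 with R and PIM3 in TMD8 with OF lay close to the fold or p limit. With R versus isotype in U2932, 1 member was called, 2 with total counts only, 5 with no limit on the fold change, and 1 to 3 without each library. With OF in U2932, 2 were called, 1 with the GC content correction with or without the replicate block, and 7 with no fold limit. Between R and OF in U2932 the count was 0, and 1 (SOCS3) with no filter, with the replicate block, with only the 4 libraries compared, and 0 to 1 without each library. With R in TMD8 it was 0, and 1 with DESeq2, no filter, at least 10 counts in every library, the GC content correction, the block with that correction or the gene length correction, 2 with the block or all 12 libraries, and 0 to 1 without each library. With OF in TMD8 it was 1, and 2 with DESeq2, no filter, the block, the block with GC correction, the length correction or all 12 libraries, 0 with only the 4 libraries compared or an adjusted p under 0.05, and 0 to 1 without each library. The interaction with R had 0, and 2 with DESeq2 or the block, 1 with no filter, the GC correction or both block and GC correction, and 0 to 2 without each library, and that with OF had 0, and 1 with the block, GC corrected or not. The replicate block ended no call. Between the lines 7 were called, SOCS2 and CISH among them, and 6 to 8 without each library. JAK2 was under 1.5-fold in 9 of the alternatives, among them DESeq2 and every other normalization. The number of all genes called also moved with the setting. With R in TMD8 it was 92 of 14227, 702 with DESeq2 and 1565 with the block, and with OF it was 116, 590 and 1387. For the interactions it was 52, 448 and 770 of 16187 with R, and 17, 223 and 354 with OF. It is not given for the other settings, so a moved count of members is not a result about the members. The causes were not tested.

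Of 1416 refitted fold changes of members, 62 had the other sign, none of them called: 45 within 1 SE of the reported value and 17 beyond it. Among the 45 were CISH with R in TMD8 (−0.379 without TMD8 R 1, −0.358 without TMD8 isotype 1), SOCS2 with OF (0.234 without TMD8 OF 2) and SOCS1 with OF (−0.133 without TMD8 isotype 2), and total counts only also turned PIM3 with R in U2932 (−0.011) and CISH, STAT3, PIM1 and PIM2 with R in TMD8 (−0.006 to −0.074). The 17 follow. With total counts only, IL10RA and PIM2 with R in U2932 turned to −0.008 and −0.00045. The GC content correction, without and with the block, turned PIM3 to −0.01 in both with OF and to 0.037 and 0.036 for R over OF in U2932, PIM1 to 0.108 and 0.109 for R over OF in TMD8, and the JAK2 interaction with R to 0.066 and 0.06. Without each library in turn, R over isotype in U2932 ran from −0.002 to 0.202 for PIM2 and from −0.048 to 0.232 for PIM3, with the lowest values without U2932 isotype 2. R over OF there ran from −0.349 to 0.003 for SOCS1 and from −0.167 to 0.018 for STAT3. In TMD8, IL10RA with R ran from −0.324 to 0.137, and its interactions from −0.052 to 0.433 with R and from −0.042 to 0.443 with OF. SOCS3 in U2932 and SOCS2 and CISH in TMD8 were limited by their low read counts.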
